A study of Mus musculus with 28 samples.

Results

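The genes described are 9 genes of homeostatic microglia: P2ry12, P2ry13, Gpr34, Cx3cr1, Csf1r, Ctss, C1qa, C1qb and Tmem119. They were chosen by name, and all 9 were found among the 41549 genes of the counts. RNA was taken from sorted nuclei of the motor cortex of 7 mice, numbered 17 to 23. By stereotactic injection each mouse received the vector AAV-Cas9-miR-124-empty on the left. On the right it received AAV-Cas9-miR-124-g4, and the vectors are called empty and g4 here. An AAV is an adeno-associated virus used to carry genes into cells, and Cas9 is an RNA-guided nuclease. The meaning of g4 is not given in the labels. The tissue was fixed in PFA (paraformaldehyde), and nuclei that stained with an antibody against an HA tag were sorted from those that did not, and the labels call the HA-positive nuclei Cas9 positive. The 4 groups are therefore the HA-positive and the HA-negative nuclei under each vector, with 1 library of each animal in every group, 7 per group and 28 in all. All groups share the injected cortex, and no group without a Cas9 vector was analysed here. Since g4 always went to the right, the vector cannot be told apart from the hemisphere. Strain, age, sex and the promoter of the vector are not given in the labels.

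Microglia are the resident macrophages of the brain. In the healthy brain they survey the tissue with moving processes and carry a set of surface receptors that is often used to recognise them. P2ry12 and P2ry13 encode receptors for ADP, which guides the processes towards injured cells, and Gpr34 encodes a receptor for lysophosphatidylserine. Cx3cr1 encodes the receptor for fractalkine, a ligand made by neurons (Cx3cl1), and Csf1r encodes the receptor for Csf1 and Il34, on which microglia depend for survival. Ctss encodes the lysosomal protease cathepsin S. C1qa and C1qb encode chains of C1q, the recognition molecule that starts the classical complement pathway, and Tmem119 encodes a membrane protein used as a microglia marker. Adeno-associated viruses are known to reach microglia poorly.

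Since most of the 9 genes were low or high in the same nuclei, their promoters are shown first. The promoters used, from the RefSeq table (GRCm38.p6, 250 bases before to 50 after the start), were those of 5 of the 9 genes. Those of Csf1r, Gpr34, C1qa and Tmem119 were not searched, so the counts below do not cover them. The 5 genes were P2ry12, P2ry13, Cx3cr1, Ctss and C1qb. They were searched on both strands for GAGGAA, the core of the site of PU.1, a transcription factor of the macrophage lineage, and for AGGAAGT, a core of Ets family sites. The motifs overlap in letters and were chosen after the sequences had been seen. Either motif was present in 4 of the 5 promoters, against 32.7% of the 32851 promoters of the table (28.3% for GAGGAA and 9.35% for AGGAAGT). The stretch from 80 bases before to 20 after the start is printed for those 4, 5′ to 3′ in the direction of the gene, with matches in capitals. A match is a description of the letters, not a bound site.
P2ry12: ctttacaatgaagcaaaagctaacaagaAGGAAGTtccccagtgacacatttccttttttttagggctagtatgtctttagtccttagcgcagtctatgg
P2ry13: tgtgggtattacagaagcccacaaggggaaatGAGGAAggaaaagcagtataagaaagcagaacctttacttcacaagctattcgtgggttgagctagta
Ctss: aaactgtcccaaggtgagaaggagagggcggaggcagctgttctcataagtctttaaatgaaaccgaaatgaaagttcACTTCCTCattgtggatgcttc
C1qb: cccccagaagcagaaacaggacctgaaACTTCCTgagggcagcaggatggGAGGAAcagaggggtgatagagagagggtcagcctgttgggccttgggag
These stretches are chr3:59262966-59263065 (minus strand) for P2ry12, chr3:59210863-59210962 (minus) for P2ry13, chr3:95526706-95526805 (plus) for Ctss and chr4:136886181-136886280 (minus) for C1qb. In P2ry12 the AGGAAGT match began 52 bases before the start, and in P2ry13 the GAGGAA match began 48 bases before it. Ctss held both motifs, overlapping and on the opposite strand, at the start itself, and another GAGGAA 164 bases before it. C1qb held AGGAAGT on the opposite strand 53 bases and GAGGAA 30 bases before the start. The Cx3cr1 promoter held neither motif in this window.

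Because both vector names carry miR-124, a microRNA abundant in neurons, the longest annotated 3′ UTR of each gene (GENCODE M21, GRCm38) was searched for letters that pair with the miR-124 seed. These were GTGCCTT, the shifted TGCCTTA, and the longer GTGCCTTA that holds both. Cx3cr1 and Csf1r held 1 GTGCCTT each, so that 2 of the 9 genes had a site, against 20.6% of 21130 coding genes. The site of Cx3cr1, in a 3′ UTR of 2587 bases, is shown with its surroundings and the match in capitals.
Cx3cr1: aggggactgtgGTGCCTTcatccattcta
The other 7 genes held none of these letters in their 3′ UTRs, which ranged from 160 bases in C1qb to 1450 in P2ry13. Neither gene with a site passed a test of g4 against empty, as described further on. In HA-positive nuclei neither had enough counts to pass the filter on low counts, and Cx3cr1 had 0 counts with empty. Whether the sites bear on the levels was not tested.

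Total counts ranged from 248612 to 902944 per library, of which ribosomal RNA took 17.0 to 40.4%. The 9 genes together had 54 counts in the empty HA-positive libraries, 356 in the g4 HA-positive, 1372 in the empty HA-negative and 1831 in the g4 HA-negative ones. Levels are given in CPM, counts scaled to the library size with TMM factors, and p-values measure the spread between the 7 libraries of a group, each from another animal. Precision is limited by these small counts, and intervals on pooled counts cover counting error only. One library stood apart. In animal 19 the g4 HA-positive library had 300 counts of the 9 genes, or 314 CPM, which is 69.6% of the g4 HA-negative mean, while the other 6 libraries of its group held 2.75 to 28.8 CPM. A list of 34 other microglia markers reached 402 CPM in that library, with 30 of the 34 detected (8.25 to 65.9 in the other 6), and 12 oligodendrocyte markers, all detected, reached 1618 CPM (110.0 to 232 in the other 6). It also held 591 counts of Xist, the RNA of the inactive X chromosome, of which the other 15 libraries of animals 17 to 20 held 0. In the animals numbered above 20 Xist was present, with 694 counts in the empty HA-positive and 2251 in the empty HA-negative libraries. The levels and tests below that use the g4 HA-positive library of animal 19 are given with and without it.

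**Figure D1:**
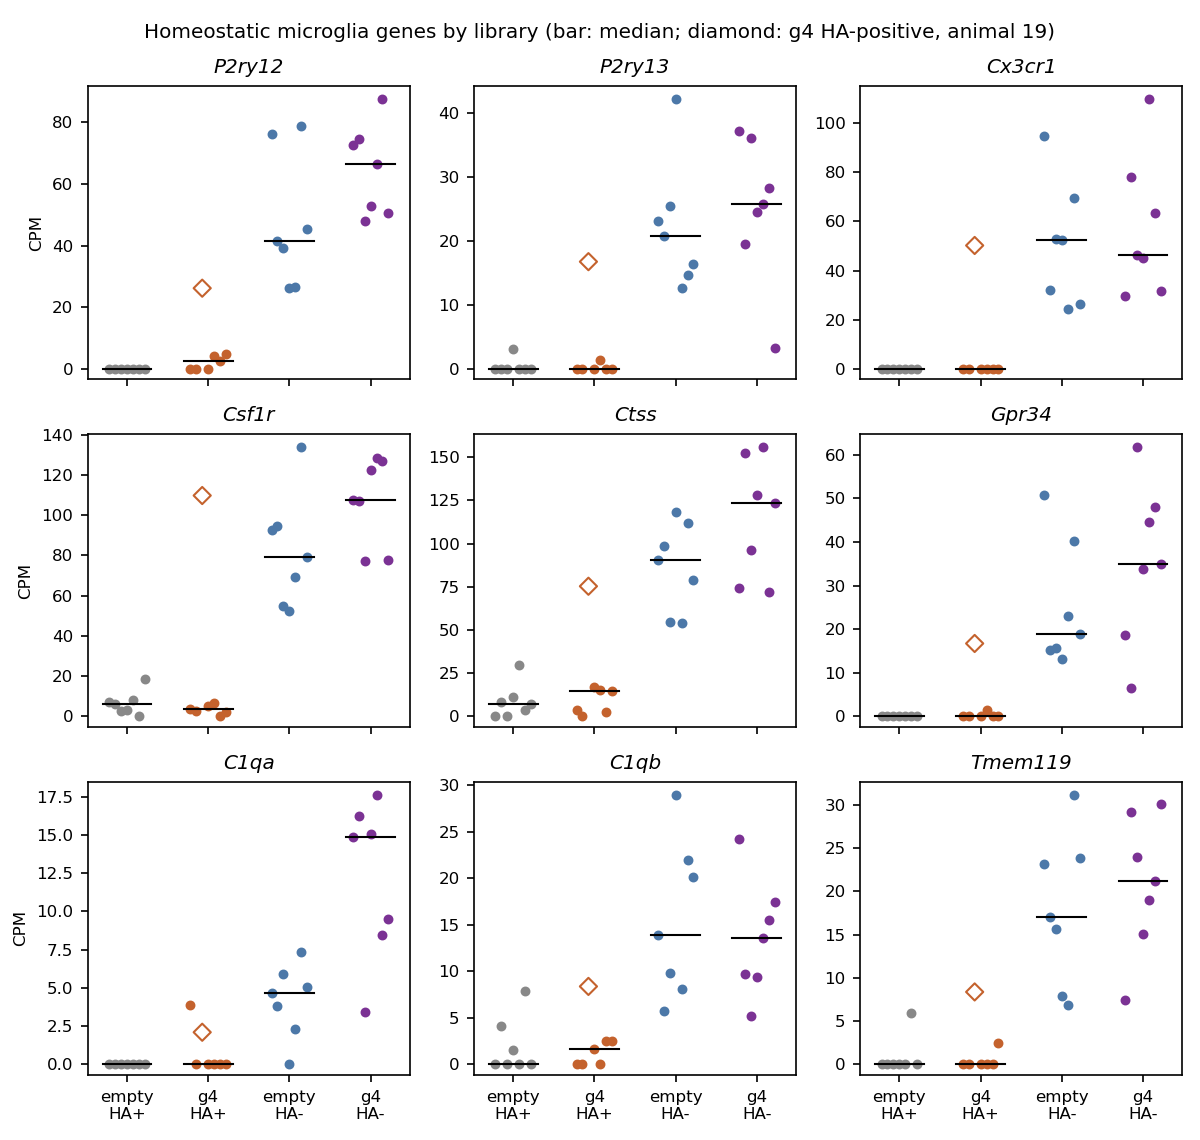
Level of each of the 9 genes in CPM (vertical axes, linear) in every library of the 4 groups (horizontal axis), with a bar at the group median. The HA-positive libraries lie at or below 29.9 CPM for all 9 genes except the g4 library of animal 19, drawn as an open diamond, which reaches 109.8 CPM for Csf1r.

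The HA-negative nuclei with the empty vector carried all 9 genes. Per kilobase of exon, Ctss stood highest at 63.9 ± 18.8 CPM (SD, n = 7). P2ry12 at 18.7 ± 8.50, Csf1r at 14.3 ± 4.86, C1qb at 14.3 ± 7.79, Gpr34 at 12.1 ± 6.96, Cx3cr1 at 11.2 ± 5.70, P2ry13 at 8.77 ± 3.93 and Tmem119 at 7.76 ± 3.81 followed, and from P2ry12 down each lay within 1 SD of the next. C1qa was lowest at 3.98 ± 2.32, also within 1 SD of Tmem119, and only the step from Ctss to P2ry12 exceeded the SD of both genes. With g4, Ctss was again highest per kilobase (84.4 ± 25.5) and Tmem119 lowest (9.01 ± 3.45), while C1qa stood at 11.7 ± 4.95. By share of counts, Ctss (24.4%) and Csf1r (24.3%) supplied the largest shares of the 1372 counts in empty HA-negative libraries and C1qa the smallest (1.24%).

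The comparison of HA-positive with HA-negative nuclei under the empty vector shows how much of each transcript was left in the sorted Cas9-positive nuclei. In HA-positive nuclei P2ry12, Cx3cr1, Gpr34 and C1qa had 0 counts in all 7 libraries, and all 9 genes together stood at 5.49% of their HA-negative level (pooled counts over library size, 95% exact interval 4.10 to 7.20%). In bulk nuclei, fewer microglia and less RNA per microglial nucleus cannot be told apart. Summed over the 9 genes, HA-positive libraries held from 2.84 to 38.1 CPM (median 18.3) and HA-negative ones from 227 to 509.5 (median 329), and the groups did not overlap.

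Among the receptors for nucleotides and lipids, P2ry12 (ENSMUSG00000036353, chromosome 3, 59216272 to 59262871, minus strand, GRCm38) was at 0 CPM in every HA-positive library and at 26.3 to 78.8 CPM (median 41.6) in the HA-negative ones. Set at 3 counts over the HA-positive group, P2ry12 was 44.7-fold lower there, with an upper interval limit of 2.78% of the HA-negative level. It passed the edgeR test (adjusted p 9.48e-07). P2ry13 (ENSMUSG00000036362, chromosome 3, 59207892 to 59210882, minus strand) lies next to it and had 2 counts in HA-positive nuclei, 3.40% of the HA-negative level (interval 0.405 to 12.7%). Its HA-negative libraries ranged from 12.7 to 42.1 CPM (median 20.8), all above the HA-positive ones. Gpr34 (ENSMUSG00000040229, chromosome X, 13632089 to 13640858, plus strand) was at 0 in HA-positive nuclei and at 13.2 to 50.9 CPM (median 18.9) in HA-negative ones. Set at 3 counts, it was 23.9-fold lower in HA-positive nuclei. In the 7 HA-negative libraries P2ry12 held 187 counts, P2ry13 82 and Gpr34 100, so that the 2 counts of P2ry13 were the only ones of these receptors in HA-positive nuclei with the empty vector.

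Cx3cr1 (ENSMUSG00000052336, chromosome 9, 119901616 to 120069879, minus strand) was likewise at 0 in each HA-positive library. In HA-negative nuclei it ranged from 24.2 to 94.9 CPM (median 52.6). Set at 3 counts over the HA-positive group, it was 44.2-fold lower there, with an upper interval limit of 2.81% of the HA-negative level. It passed the edgeR test (adjusted p 1.12e-06). Its neuronal ligand Cx3cl1 had 198 CPM in HA-positive and 239 CPM in HA-negative nuclei on average and was not called.

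Csf1r (ENSMUSG00000024621, chromosome 18, 61100598 to 61132149, plus strand) kept a low level in HA-positive nuclei. It ranged from 0 to 18.4 CPM (median 6.11) there and from 52.6 to 133.8 CPM (median 79.2) in HA-negative nuclei, without overlap. The log2 fold change was -3.78 ± 0.45 (adjusted p 5.91e-07 by edgeR), where ± is an SE derived from the F value of the test. The pooled level left was 6.68% (interval 3.77 to 11.0%). Csf1, which encodes one ligand of this receptor, averaged 3.01 CPM in HA-positive and 5.84 in HA-negative nuclei, and Il34, which encodes the other, 9.27 and 12.9.

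Ctss (ENSMUSG00000038642, chromosome 3, 95526786 to 95556403, plus strand), the most abundant of the 9 genes per length, also had the most counts left. Its HA-positive libraries held 0 to 29.9 CPM (median 7.36; 26 counts in all) and its HA-negative ones 54.1 to 118 CPM (median 90.2), without overlap. The fall was -3.24 ± 0.45 on the log2 scale (adjusted p 9.77e-06 by edgeR), to 10.8% of the HA-negative level (interval 6.97 to 16.1%). Of the 26 counts 11 came from animal 21, and without that animal the fall was -3.96 (adjusted p 1.72e-07 by edgeR). This share lies above the upper interval limits of P2ry12 (2.78%), Cx3cr1 (2.81%) and Gpr34 (5.24%), as a matter of counting error alone.

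The complement genes had the fewest counts of the 9 in empty HA-negative nuclei. C1qa (ENSMUSG00000036887, chromosome 4, 136895917 to 136898803, minus strand) had 0 counts in HA-positive and 17 in HA-negative nuclei, where 1 library also held 0. Set at 3 counts, it was 4.07-fold lower, and its interval reached up to 33.8% of the HA-negative level. C1qb (ENSMUSG00000036905, chromosome 4, 136880129 to 136886187, minus strand) had 7 counts against 60, or 16.3% (interval 6.27 to 35.6%), and its groups overlapped. Tmem119 (ENSMUSG00000054675, chromosome 5, 113793729 to 113800516, minus strand) had 3 counts in 1 HA-positive library against 6.91 to 31.2 CPM (median 17.0) in HA-negative ones, which is 5.81% (interval 1.17 to 17.7%). For C1qa and C1qb the difference at this depth rests on few counts.

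In this comparison 4 of the 9 genes passed the low-count filter, P2ry12, Cx3cr1, Csf1r and Ctss, and all 4 were lower. They could pass only through the HA-negative libraries, so the count supports nothing by itself. Over all 5538 genes tested, 3.5% were called lower. When every gene with a count was tested, 7 of the 9 were called lower, against 2.41% of 17753 genes. P2ry13 (adjusted p 0.000133), Gpr34 (4.14e-07) and Tmem119 (0.00246) joined the first 4, while C1qa (0.0637) and C1qb (0.0571) missed the threshold of 0.05 in edgeR's test. DESeq2 called 8. All 9 genes were lower in HA-positive nuclei in 7 of 7 animals except C1qa, lower in 6. For 7 of the 9, all but C1qa and C1qb, every HA-positive library lay below every HA-negative one, a pattern that 1.23% of the 17753 genes tested with no filter showed.

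Other microglia genes were sparse in the same nuclei. Of 34 other microglia markers, 2 passed the filter and 1 was lower by edgeR. With no filter 18 of 33 tested were called lower and 0 higher. Summed, these 34 markers held 38.1 to 103 CPM in empty HA-positive and 295 to 609 in empty HA-negative libraries, with 14 of them at 0 in all HA-positive libraries. Of 12 ligands and partners of microglia, 5 were tested and 2 were lower: Tgfbr1, a receptor for transforming growth factor beta (-3.16 ± 0.57), and Cd47, a signal against phagocytosis (-0.48 ± 0.13). Among 12 transcription factors 3 were tested and none was called, Mef2c and Mef2a being the most abundant. With no filter 3 of 11 tested were called lower, Irf8, Sall1 and Ikzf1, and 0 higher. Among 16 reactive microglia genes the 1 tested, the lipid carrier gene Apoe, was lower (-1.63 ± 0.30). With no filter 2 of 10 tested were lower, Apoe and Cd9, and 0 higher. Of the 9 other complement genes 1 was tested, the complement regulator gene Csmd1, and it was not called. With no filter 2 of 9 were called lower, C1qc and C3ar1, and 0 higher.

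Markers of other cells moved in this comparison too. Of 12 oligodendrocyte markers 9 were tested and all 9 were lower, with summed levels of 61.4 to 140 CPM in HA-positive and 1310 to 2269 in HA-negative libraries. Of 10 neuronal markers all were tested, Gad1 and Gad2, the enzymes that make GABA, were higher and the other 8 were not called, and 1 of 6 tested astrocyte genes, the glutamate transporter gene Slc1a2, was lower. The part of these cells in the levels of the 9 genes was not tested. Border macrophages share Csf1r, Ctss and C1q genes with microglia. Their 8 markers held 0 to 16.5 CPM summed in empty HA-negative and 8.46 to 35.7 in g4 HA-negative libraries. Among them Stab1 had 23 and 33 counts in these 2 groups, Mrc1 had 9 and 18, and Cd163 had 0 and 2. The 11 markers of blood leukocytes held 0 to 26.5 CPM in HA-negative libraries, where Cd4 had 51 counts with empty and 20 with g4. S100a9, Cd3e and Cd3d were at 0 in all 28 libraries.

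Several of the 9 genes share their position with longer genes. P2ry12 and P2ry13 lie inside Med12l, a Mediator subunit gene on the opposite strand (chromosome 3, 59005825 to 59318682), and exons of P2ry12 overlap exons of Med12l. Gpr34 lies in Cask, a synaptic scaffold gene on the opposite strand (chromosome X, 13517080 to 13851367), without exon overlap. The annotated span of Cx3cr1 overlaps 9 other genes, of which Gm33858 shares exons with it, and Csf1r shares exons with Hmgxb3 on the opposite strand. Since the strand setting of the counting is not given, reads in shared exons cannot be told apart. Med12l averaged 65.1 CPM in empty HA-positive and 76.1 in empty HA-negative nuclei (-0.21 ± 0.27 log2, adjusted p 0.750), and Cask averaged 85.9 and 94.4 (-0.13 ± 0.24, adjusted p 0.824), both by edgeR. P2ry12 and Gpr34 were at 0 counts in the same empty HA-positive libraries in which these host genes held 192 and 251 counts. Hmgxb3, which shares exons with Csf1r, averaged 27.0 CPM in empty HA-positive and 37.8 in empty HA-negative nuclei (-0.50 ± 0.49 log2, adjusted p 0.646 by edgeR). How many of the 16 Csf1r counts in empty HA-positive nuclei lay in shared exons was not tested.

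**Figure D2:**
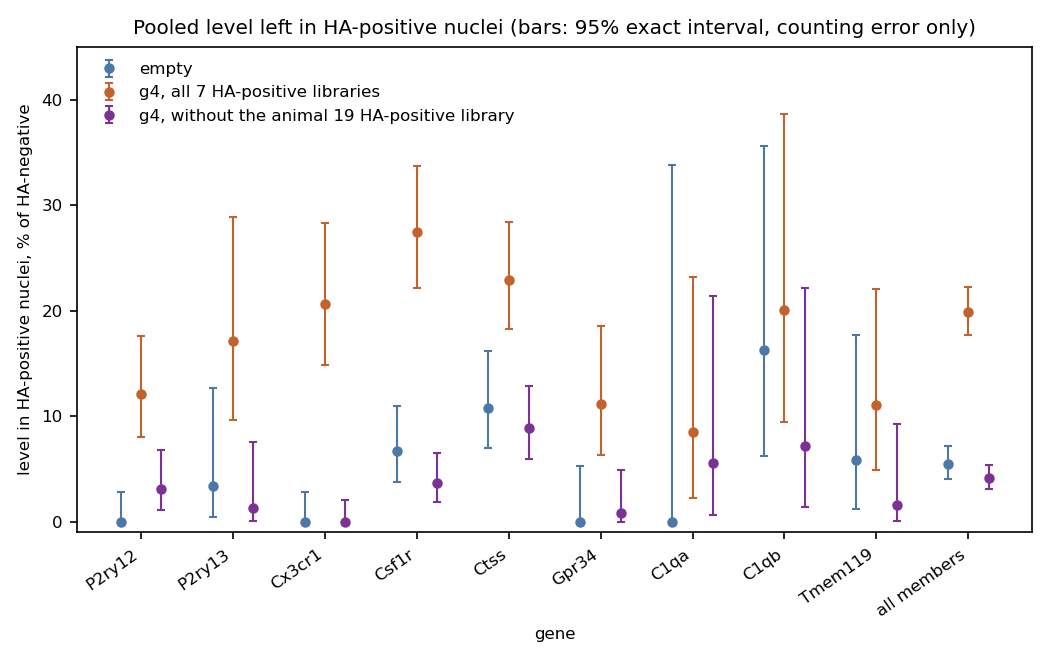
Pooled level of each gene in HA-positive nuclei as a percentage of the HA-negative level (vertical axis) for each gene and the 9 together (horizontal axis), with 95% exact intervals for counting error. With the empty vector the 9 genes together stood at 5.49%, with g4 at 19.8%, and with g4 but without the HA-positive library of animal 19 at 4.12%.

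The same comparison under g4 depended on the library of animal 19. Over all 7 libraries the 9 genes together stood at 19.8% of the g4 HA-negative level (interval 17.7 to 22.2%), and at 4.12% (3.10 to 5.37%) without that library. The g4 HA-negative level itself was highest for Ctss, at 71.9 to 156 CPM (median 124), and Csf1r, at 77.2 to 129 (median 108).

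P2ry12 had 31 counts in g4 HA-positive nuclei, 25 of them in animal 19. Its HA-positive libraries ranged from 0 to 26.2 CPM (median 2.50), and to 4.94 without animal 19, against 48.0 to 87.4 (median 66.4) in HA-negative ones. It was the only one of the 9 whose groups did not overlap with all libraries included. The log2 fold change was -3.22 ± 0.54 with all libraries (adjusted p 0.000524 by edgeR) and -4.88 ± 0.49 without that of animal 19 (adjusted p 4.84e-09).

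For Cx3cr1 all 48 counts in g4 HA-positive nuclei came from animal 19, at 50.2 CPM, and the other 6 libraries held 0. The HA-negative libraries ranged from 29.7 to 109.7 CPM (median 46.3). With all libraries Cx3cr1 was not called (-2.58 ± 0.92, adjusted p 0.148 by edgeR). Without that of animal 19 it was 58.7-fold lower when set at 3 counts (adjusted p 7.75e-09 by edgeR). For Csf1r, 105 of its 117 counts came from animal 19, where it reached 109.8 CPM against 0 to 6.86 in the other 6, and its adjusted p went from 0.122 (-2.21 ± 0.75) to 8.18e-12 (-4.70 ± 0.36).

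Ctss held 102 counts in g4 HA-positive nuclei and 30 without animal 19, where its level was 0 to 16.9 CPM. Its fall was called in both settings, at -2.39 ± 0.58 (adjusted p 0.0276 by edgeR) and -3.53 ± 0.36 (adjusted p 1.57e-08), and 8.87% of the HA-negative level was left without animal 19 (interval 5.92 to 12.8%). P2ry13 and Gpr34 each had 17 counts, of which 1 lay outside animal 19. P2ry13 was lower with all libraries (-2.70 ± 0.67, adjusted p 0.0115) and without that library (-5.50 ± 0.83, adjusted p 8.93e-06), and so was Gpr34 (-3.23 ± 0.67, adjusted p 0.00335, and -6.04 ± 0.75, adjusted p 2.55e-07), by edgeR. C1qa, C1qb and Tmem119 had 4, 11 and 9 counts with all libraries and 2, 3 and 1 without that of animal 19, against 48, 56 and 83 in HA-negative nuclei.

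With all libraries 6 of the 9 genes passed the filter and 4 were called lower, against 3.08% of 6264 genes; here too the filter was passed through the HA-negative group. Without the library of animal 19 all 6 were called, against 4.16% of 6371 genes. With no filter 5 of 9 were called with all libraries (P2ry12, P2ry13, Gpr34, C1qa and Tmem119, against 1.63% of 18208 genes) and 9 of 9 without that of animal 19, against 2.45% of 17924 genes. Every HA-positive library lay below every HA-negative one for all but C1qa when animal 19's library was left out, a pattern found in 1.09% of the 17924 genes tested with no filter. The calls over all libraries were fragile: with 1 animal left out at a time, 1 to 4 genes were called, P2ry12 in 7 of 7 fits, Gpr34 in 4 of the 4 in which it was tested, P2ry13 in 2 of 4 (lost without animal 17 or 22) and Ctss in 1 of 7.

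The other lists also differed with and without that library. Of 34 other microglia markers 4 were tested with g4 and 3 were lower, Fcrls (-2.53 ± 0.65) and Laptm5 (-2.52 ± 0.66) among them. Without animal 19's library Entpd1 (-3.98 ± 0.71) and Lgmn (-1.35 ± 0.38) joined them, 5 of 5 tested. Tgfbr1 was lower in both settings (-2.01 ± 0.42 and -2.73 ± 0.42). Of the oligodendrocyte markers 7 of 10 tested were lower with all libraries and 11 of 11 without that of animal 19. Gad1, Gad2 and the synaptic vesicle gene Syt1 were higher in both settings. The part of these cells in the result was not tested.

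**Figure D3:**
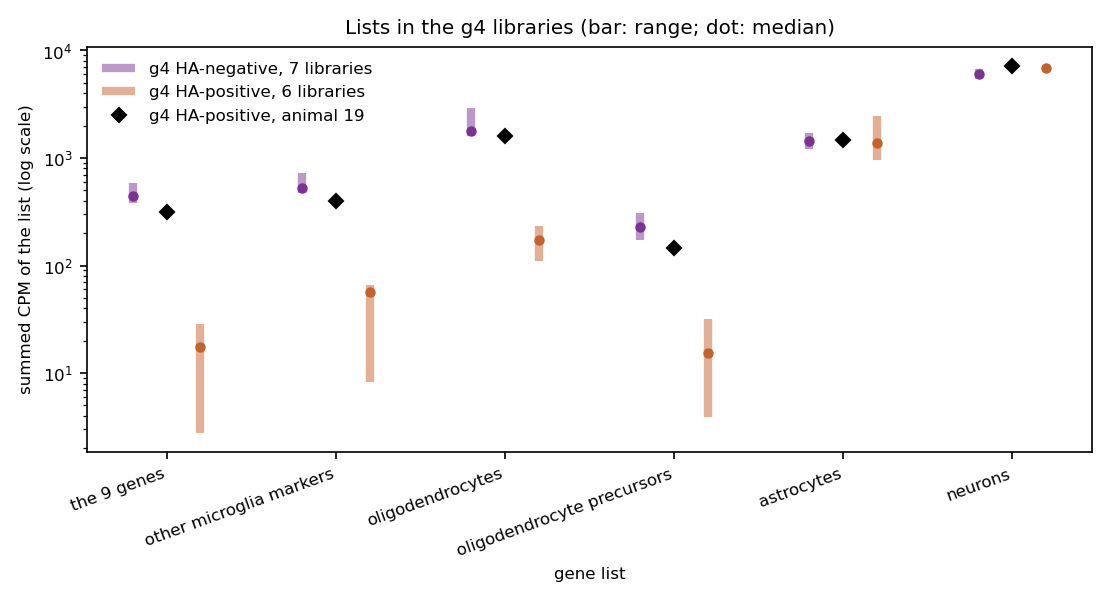
Summed CPM of 6 gene lists (horizontal axis) on a log scale (vertical axis), as the range and median of 7 g4 HA-negative libraries and of 6 g4 HA-positive libraries, with the g4 HA-positive library of animal 19 as a diamond. That library holds 314 CPM of the 9 genes and 1618 CPM of oligodendrocyte markers, against at most 28.8 and 232 in the other 6 HA-positive libraries.

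Within the library of animal 19 the 9 genes did not all reach the same share of the g4 HA-negative mean. Csf1r stood at 103% and Cx3cr1 at 87.0%, P2ry13 at 67.2%, Ctss at 65.7% and C1qb at 61.7%. Gpr34 (47.2%), P2ry12 (40.5%), Tmem119 (40.1%) and C1qa (17.2%) were lower, the last with 2 counts. Oligodendrocyte markers stood at 79.2% and oligodendrocyte precursor markers at 62.6%, while neuronal markers, at 120%, and astrocyte markers, at 101%, were within the range of the other HA-positive libraries.

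The comparison of g4 with empty within HA-negative nuclei asks whether the microglia genes differed between the injected sides outside the Cas9-positive nuclei. The 9 genes together held 227 to 509.5 CPM (median 329) with empty and 379 to 581 (median 446) with g4, 1.34-fold as much by pooled counts (interval 1.25 to 1.44, counting error only). The groups overlapped: 5 of the 7 empty libraries lay below the lowest g4 library, and 1 g4 library lay above the highest empty one. By animal the sum was higher with g4 in 5 of 7 and lower in animals 17 and 22. None of the 9 genes passed the test.

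P2ry12 ranged from 26.3 to 78.8 CPM with empty and from 48.0 to 87.4 with g4, with medians of 41.6 and 66.4, and was higher with g4 in 6 of 7 animals (0.44 ± 0.25 log2, adjusted p 0.999). Ctss, with medians of 90.2 and 124, was higher in 5 of 7 (0.41 ± 0.20, adjusted p 0.999), as were Csf1r, with medians of 79.2 and 108 (0.37 ± 0.20, adjusted p 0.999), and Gpr34, with 18.9 and 34.9 (0.53 ± 0.35, adjusted p 0.999), all by edgeR. Their libraries overlapped between the vectors. P2ry13 (0.21 ± 0.38), Cx3cr1 (0.23 ± 0.31) and Tmem119 (0.20 ± 0.39) lay within 1 SE of 0, and Cx3cr1 was higher with g4 in 3 of 7 animals.

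C1qa and C1qb, which encode chains of the same molecule, stood on different sides of 0. C1qa had 17 counts with empty (0 to 7.33 CPM, median 4.63) and 48 with g4 (3.43 to 17.6, median 14.9), and was higher in 6 of 7 animals. C1qb had 60 and 56 counts (5.68 to 29.0 CPM, median 13.9, and 5.15 to 24.2, median 13.5) and was higher in 3. Neither passed the filter, and in the edgeR fit with no filter C1qa gave 1.48 ± 0.68 (adjusted p 0.562) and C1qb -0.14 ± 0.48 (adjusted p 0.979). The third chain, C1qc, averaged 18.3 CPM with empty and 18.5 with g4 (-0.04 ± 0.41). The difference between the chains was not tested.

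Of the 9 genes 7 were tested here, all 7 lay above 0 with a median log2 fold change of 0.37, and 0 were called, against 0.0% of 6262 genes called and a median of -0.0045 over all genes. At an unadjusted p under 0.05, 236 of the 6262 genes passed by edgeR, of which 1 was among these 7 (Ctss, 0.0478). This depended on the setting. In edgeR with the animal as a block, P2ry12 (unadjusted p 0.0413), Csf1r (0.0389) and Ctss (0.0499) passed. With no filter Csf1r (0.0434), Ctss (0.0234) and C1qa (0.0291) did. Their adjusted p-values were 0.554 or more. How many of all genes passed unadjusted in these other settings is not given here, so these passes have no share over all genes beside them. DESeq2 and limma voom called 0 of the 9 as well. Of 34 other microglia markers 12 were tested, 9 lay above 0 and none was called (median 0.29). Oligodendrocyte markers lay above 0 in 9 of 11 tested (median 0.12) and precursor markers in 5 of 6 (median 0.45), and 8 of 10 neuronal markers lay below 0 (median -0.05), with 0 called. With no filter, border macrophage markers lay above 0 in 7 of 8 (median 1.08), blood leukocyte markers in 5 of 7 (median 1.62) and the 9 genes in 8 of 9 (median 0.38), again with 0 called. The leukocyte markers above 0 had 0 counts with empty and 1 to 3 with g4, while Cd4 had 51 and 20. Of the macrophage markers, Pf4, Cd163, F13a1 and Ms4a7 had 0 counts with empty and 1 to 4 with g4. Stab1 (23 and 33) and Mrc1 (9 and 18) had the most. Summed, the macrophage markers held a median of 7.90 CPM with empty and 14.9 with g4, and the leukocyte markers 9.26 and 4.23. The part of these cells in the levels of the 9 genes was not tested.

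**Figure D4:**
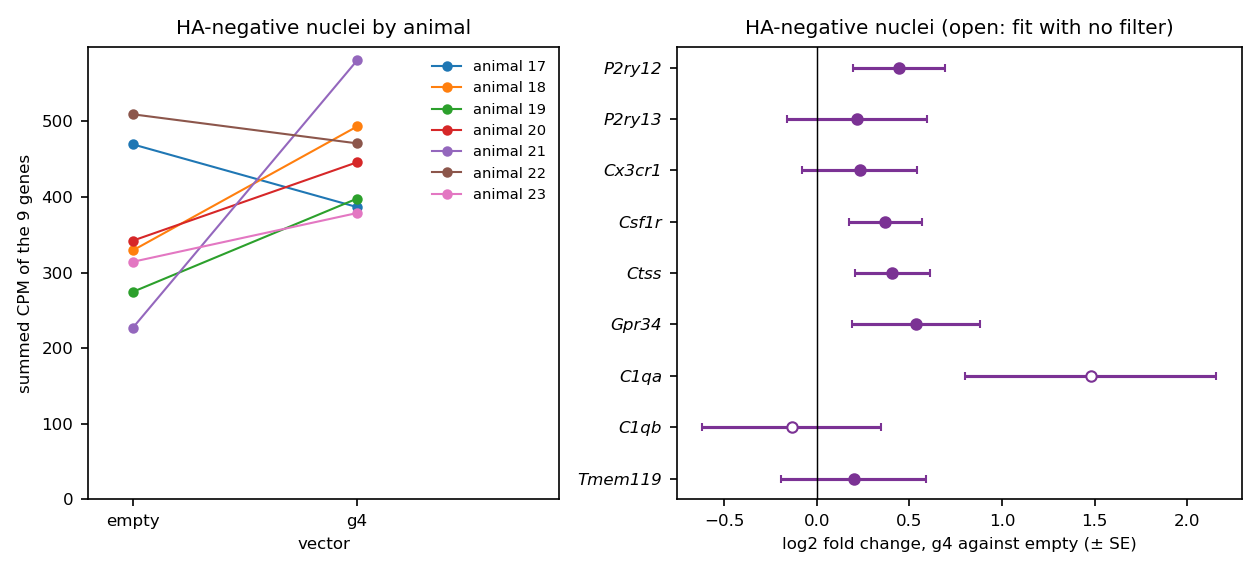
Left, summed CPM of the 9 genes in HA-negative nuclei (vertical axis) for the empty and g4 vectors (horizontal axis), 1 line per animal. Right, log2 fold change of g4 against empty (horizontal axis) ± SE for each gene, open where the fit had no filter. The sum rises with g4 in 5 of 7 animals, and no gene passed the test.

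In HA-positive nuclei, where the Cas9 vectors were present, g4 and empty could hardly be compared for these genes. None of the 9 passed the filter. With no filter all 9 lay above 0 with g4, 0 were called, and 0.16% of 17517 genes were called in either direction. Cx3cr1 came closest (adjusted p 0.103 by edgeR), followed by P2ry12 (adjusted p 0.228), both at 0 with empty. Without the library of animal 19 the pooled level of the 9 genes with g4 was 1.01-fold that with empty (interval 0.680 to 1.49, counting error only), against 4.85-fold (3.64 to 6.59) with it. Cx3cr1 then had 0 counts with either vector and could not be tested. Of the other 8 genes 4 lay above 0 and 4 below, with a median of -0.24 on the log2 scale against 1.96 for the 9 genes with that library, and 0 were called by edgeR. P2ry12 (3.03 ± 1.22, 6 counts with g4 and 0 with empty, adjusted p 0.398), C1qa (1.78 ± 0.97), Gpr34 (1.02 ± 0.76) and Ctss (0.10 ± 0.89) lay above 0. P2ry13 (-0.58 ± 1.10), Csf1r (-0.72 ± 1.11), C1qb (-0.77 ± 1.27) and Tmem119 (-0.86 ± 1.14) lay below 0.

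The difference between the g4 effects in HA-positive and HA-negative nuclei was tested for 7 genes, and 0 were called, as were 0.0% of 7197 genes, of which 359 lay at an unadjusted p under 0.05 by edgeR. P2ry12 had the smallest p of the 9, at an adjusted p of 0.797 (4.43 ± 1.28). When the library of animal 19 was left out, the value of Cx3cr1 (5.13 ± 2.08 with it) could not be estimated, since no HA-positive library then held a count. The sign turned for P2ry13 (1.87 ± 1.16 to -0.87 ± 1.34), Csf1r (1.56 ± 1.01 to -0.91 ± 0.64), Ctss (0.83 ± 0.80 to -0.31 ± 0.64) and Tmem119 (0.65 ± 1.09 to -1.31 ± 1.33), and P2ry12 (2.76 ± 1.13) and Gpr34 (0.71 ± 0.73) lay above 0 in both settings. Without the library of animal 19, HA-positive counts with g4 and empty were 6 and 0 for P2ry12 and 1 and 0 for Gpr34. For P2ry13 they were 1 and 2, for Tmem119 1 and 3, for Csf1r 12 and 16 and for Ctss 30 and 26. These signs therefore rest on few counts.

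Over the 14 HA-negative libraries, the genes outside the 9 whose log2(CPM + 1) followed their sum most closely were Cst3 (r = 0.906), Mpzl1 (0.815), Ppp3cc (0.780), 9130024F11Rik (0.764) and Ednrb (0.747), among 10372 genes with at least 5 CPM on average. Cst3, which encodes cystatin C, a secreted inhibitor of cathepsins, was the most abundant of these at 387 ± 62.1 CPM. The libraries share animals and sorting, and the others averaged 6.69 to 18.8 CPM. Over 13 HA-positive libraries without that of animal 19 the closest were Txlng (0.914), Tent2 (0.898), Fbxo25 (0.883), Ankle2 (0.866) and 4732440D04Rik (0.862), where the 9 genes held 54 counts with empty and 56 with g4. Such sparse counts make these values a description only.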

How the data were processed

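Nuclear RNA of 28 libraries (7 animals, 4 groups) was analysed. The values deposited are raw gene counts, per the labels, all of them whole numbers from 1 upwards, so that an empty cell was read as 0. The build is GRCm38 per the submitters' processing notes, and the sources used here name no aligner, counter or strand setting. Of 41550 entries, 1 had no name and no value and was left out. Value columns without a sample numbered 0. Groups and animal numbers come from the sample titles, and columns were tied to samples through the descriptions, in which the column number of 3 animals is 1 higher than the title's.

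Counts were tested with edgeR 4.0.16 (R 4.3.3), by a robust two-sided quasi-likelihood fit with TMM factors, genes kept by filterByExpr per group and no block, in 5 comparisons. A call is a p-value under 0.05 after Benjamini-Hochberg adjustment over all tested genes. The SE of a log2 fold change is its absolute value divided by the square root of the edgeR F value. It restates the test and is not a separate estimate of precision, least of all for genes near 0 counts. CPM use TMM library sizes over all 28 libraries. Pooled ratios carry 95% exact intervals, and a group at 0 was set at 3 counts. The test was checked on simulated counts. Groups of the same animal share its number in the titles, and so the samples are paired; deviations of same-animal libraries correlated at -0.10 to 0.14 over the comparisons. Alternatives were DESeq2 1.42.0, limma 3.58.1 voom, no filter, no TMM, the animal as a block, no ribosomal RNA, and leaving out each animal, the animal 19 g4 HA-positive library or libraries under 10000 genes; no filter together with leaving out that library was chosen after seeing the data.

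The 9 genes and the 12 other gene lists were chosen with earlier results of these data known. Named are the 9 genes, list genes called in a comparison (else the 2 most abundant), overlapping genes, and the 5 genes most alike in each fraction. Some list genes called only without a filter are not named, and some list genes are not reported here. Promoters are from RefSeq, 3′ UTRs and positions from GENCODE.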

Additional observations from a re-analysis of the deposited data

Results flagged for a closer look

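Outliers were sought in groups of 7 libraries with at least 10 counts of a gene. In g4 HA-positive nuclei this left C1qa (4 counts) and Tmem119 (9 counts) unchecked. For each of the other 7 genes the g4 HA-positive library of animal 19 lay far from the other 6. It held 26.2 CPM of P2ry12 (0 to 4.94 in the others), 16.7 CPM of P2ry13 and 16.7 CPM of Gpr34 (0 to 1.37 each), 50.2 CPM of Cx3cr1 (0 in the others), 109.8 CPM of Csf1r (0 to 6.86), 75.3 CPM of Ctss (0 to 16.9) and 8.37 CPM of C1qb (0 to 2.50). Summed over the 9 genes it held 314 CPM against 2.75 to 28.8. Ctss also had 1 empty HA-positive library apart from the rest, that of animal 21 at 29.9 CPM and 11 counts, against 0 to 11.0 CPM in the others. Without animal 21 the log2 fold change of Ctss between HA-positive and HA-negative nuclei with the empty vector was -3.96, against -3.24 with it. For normally distributed values such a gap appears by chance in about 1 in 20 groups. Many of these libraries held 0 counts of a gene, so that rate need not hold here.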

How the results depend on the processing

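With the empty vector, 4 genes were called lower in HA-positive nuclei, 8 by DESeq2 and 7 with no filter. With g4, 4 were called, 8 by DESeq2, 2 without ribosomal RNA, 9 with no filter and without the animal 19 library, 6 without that library, and 1 to 4 with each animal left out in turn (2 without animal 17, 1 without 20, 1 without 21, 2 without 22). The cause of the shifts was not tested, except that settings with no filter test more genes. The animal as a block left 4 genes called in each of these comparisons and 0 in the others, and changed no call of the 9 genes. In HA-negative nuclei Cx3cr1 turned to -0.16 (log2, g4 against empty) without animal 21, in a range up to 0.57 with each animal left out in turn. For the difference of the g4 effects, limma voom turned Gpr34 to -0.020 and Tmem119 to -0.28. Without the animal 19 g4 HA-positive library P2ry13, Csf1r, Ctss and Tmem119 turned to -0.87, -0.91, -0.31 and -1.31, with no filter as well to -0.85, -0.89, -0.28 and -1.27, and without animal 19 altogether to -0.94, -1.01, -0.46 and -1.41, while Cx3cr1 had no value in these settings. With each animal left out in turn these 4 reached at most 3.75, 2.05, 1.69 and 0.83. HA-positive libraries held at most 21 counts of the 9 genes outside animal 19, which limits every comparison within them.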
